A study of Mus musculus with 2 samples.

Results

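The Krüppel-like factors (KLFs) are transcription factors that bind GC-rich and CACCC sequences through zinc fingers at their C-terminus. They were followed here in mouse keratinocytes, the main cell type of the epidermis, wild type or labelled as deleted for Chuk, the gene of the kinase IKKα. The members were Klf2, Klf3, Klf4, Klf5, Klf6, Klf7, Klf9, Klf10, Klf13 and Klf15, taken as every non-control probe whose gene name in both scanner files equals one of these symbols. This gave 18 probes for 10 genes, out of 41174 gene probes on the array, and 16 of the 18 passed the filter on dim probes. Each of the 10 genes kept at least 1 probe. The whole table held 13758 tested genes.

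Each of 2 two-colour Agilent arrays carried RNA labelled CHUK-LoxP mutant keratinocyte in Cy5 and RNA of wild-type keratinocytes in Cy3, and the labels describe the mutant cells as deleted for Chuk. They give no Cre driver, strain, passage or age for either genotype and no dye swap, so for any probe the dye and the genotype cannot be told apart. The arrays are numbered as replicates 1 and 2, with nothing said about separate cultures or animals, so p-values cover no more than array-to-array spread, possibly technical. The arrays shared a slide and a scan (1 of each). Values are log2 ratios of Cy5 over Cy3, that is of Chuk-deleted over wild type, after loess, as mean ± SD of the arrays (n = 2). Rose and fell mean an adjusted p under 0.05 by limma with Benjamini-Hochberg adjustment over all tested probes.

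Median spot intensities were 218 and 171.5 in the channel labelled Chuk-deleted, against 109.9 and 95.2 in the wild-type channel. Under loess Chuk itself read higher where the label says deleted, with log2 ratios at its 2 probes of 0.74 ± 0.02 and 0.85 ± 0.11. Spike-in controls read higher there too, with mean log2 ratios of 0.68 and 0.84 on arrays 1 and 2, which the spike-in setting below takes off. A higher Chuk signal goes against the label on its face. The Chuk ratios were about as large as the spike-in means, so the higher reading holds under loess and not clearly with the spike-in setting. The place of the probes in the gene is not given in the sources used here, dye and genotype cannot be told apart, and the cause was not tested. Every direction therefore rests on the channel labels alone. All 12 keratinocyte markers were well above background in both channels. Over all tested genes 33.0% rose and 28.3% fell, a split that depends on the centring: 10271 rose and 998 fell with median centring and no loess, and 272 rose and 12522 fell with the spike-in setting, in which the mean of 10 spike-in controls is taken off each array, against 4534 and 3888 under loess. These settings moved the median of all genes by 0.53 and -0.76, so member values are given under loess. Values under the other centrings are to be read against that shift. Only with the spike-in setting is the shift the same for every gene of an array. With median centring it differed by probe: Klf2 (A_52_P442031) went from 0.43 to 1.33 and Klf5 (A_52_P54463) from 0.16 to 0.46. A place relative to the all-gene median under median centring therefore still holds a part that differs by probe.

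Among KLFs, KLF4 is best known in skin for driving terminal differentiation and the permeability barrier, while KLF5 is tied to proliferating basal epithelial cells. The family splits by the partners of the proteins: KLF2, KLF4, KLF5, KLF6 and KLF7 act mostly as activators, KLF3, KLF8 and KLF12 repress with the corepressor CtBP, and KLF9, KLF10, KLF11, KLF13 and KLF16 recruit the corepressor Sin3A. Several KLF genes are themselves switched on quickly by growth factors, glucocorticoids or TGF-β.

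Of the 10 members, represented by their brightest tested probe, 5 fell (Klf3, Klf4, Klf5, Klf10 and Klf15), 2 rose (Klf2 and Klf13) and 3 did not pass (Klf6, Klf7 and Klf9). Against the 33.0% of all genes that rose and the 28.3% that fell, 10 genes are a small count, and the share called in either direction, 7 of 10, lies beside 61.2% of all genes. With median centring alone no member fell and 6 rose, Klf3 among them, and with the spike-in setting all 10 fell. The changes were modest: the largest was a log2 ratio of -0.89, and 0 of the 10 reached a 2-fold difference on each array in either direction (1.50% of tested genes were that much higher and 3.21% that much lower). The median over the members was -0.07, beside 0.02 over all genes. All 10 had the same sign on both arrays, as did 89.4% of tested genes. By probe, 5 of the 16 rose and 6 fell, 11 in either direction, where 33.4% of all tested probes rose and 27.9% fell, 61.4% in either direction.

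The promoters of 2 falling and the 2 rising members with a promoter in the RefSeq table of the GRCm38.p6 build are shown as the 250 bases before their transcription start, because KLF proteins bind the very motifs that KLF genes carry there. Capitals mark GC boxes (GGGCGG or its reverse complement CCGCCC) and CACCC boxes (CACCC or its reverse complement GGGTG), searched on both strands. The windows are chr4:55532476-55532725 (minus strand) for Klf4, chr5:64803271-64803520 (plus) for Klf3, chr8:72318812-72319061 (plus) for Klf2 and chr7:63938916-63939165 (minus) for Klf13.
Klf4: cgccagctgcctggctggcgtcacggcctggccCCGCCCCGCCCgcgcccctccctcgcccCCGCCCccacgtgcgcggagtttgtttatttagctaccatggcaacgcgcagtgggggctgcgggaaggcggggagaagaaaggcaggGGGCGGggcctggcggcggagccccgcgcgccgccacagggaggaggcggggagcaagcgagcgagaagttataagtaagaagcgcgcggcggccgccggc
Klf3: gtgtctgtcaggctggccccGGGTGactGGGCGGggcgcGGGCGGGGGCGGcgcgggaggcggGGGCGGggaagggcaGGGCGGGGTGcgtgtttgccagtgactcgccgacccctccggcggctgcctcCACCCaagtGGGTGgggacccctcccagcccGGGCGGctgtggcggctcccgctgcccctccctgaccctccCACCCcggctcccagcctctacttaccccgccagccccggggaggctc
Klf2: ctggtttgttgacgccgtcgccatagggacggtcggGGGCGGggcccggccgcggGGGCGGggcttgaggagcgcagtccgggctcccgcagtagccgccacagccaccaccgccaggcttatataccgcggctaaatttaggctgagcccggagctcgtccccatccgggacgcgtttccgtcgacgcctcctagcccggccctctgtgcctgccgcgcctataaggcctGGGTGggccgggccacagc
Klf13: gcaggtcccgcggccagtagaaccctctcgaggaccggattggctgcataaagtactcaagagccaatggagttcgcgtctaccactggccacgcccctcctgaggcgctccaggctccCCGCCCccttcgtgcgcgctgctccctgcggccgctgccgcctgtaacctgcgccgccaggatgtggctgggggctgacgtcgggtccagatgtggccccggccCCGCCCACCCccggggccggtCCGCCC
Klf4 held 4 GC boxes and 0 CACCC boxes, Klf3 held 6 and 5, Klf2 held 2 and 1, and Klf13 held 3 and 1. A GC box and a CACCC box overlapped once in Klf3 and once in Klf13. Of the 8 members with an entry (all but Klf5 and Klf10), 7 had a GC box and 6 a CACCC box, whereas 32.7% and 52.0% of all 32851 promoter windows of this length did. Klf9 was the one without a GC box. GC content was 59.2% to 78.4% in the member windows, against a median of 52.4%. CCAAT boxes (CCAAT or ATTGG) were in 4 of the 8, those of Klf6, Klf9, Klf13 and Klf15, against 33.8% of all windows. The cyclic AMP response element TGACGTCA was in 0 of the 8 and in 1.55% of all. Both rising and both falling members shown carried GC boxes.

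**Figure D1:**
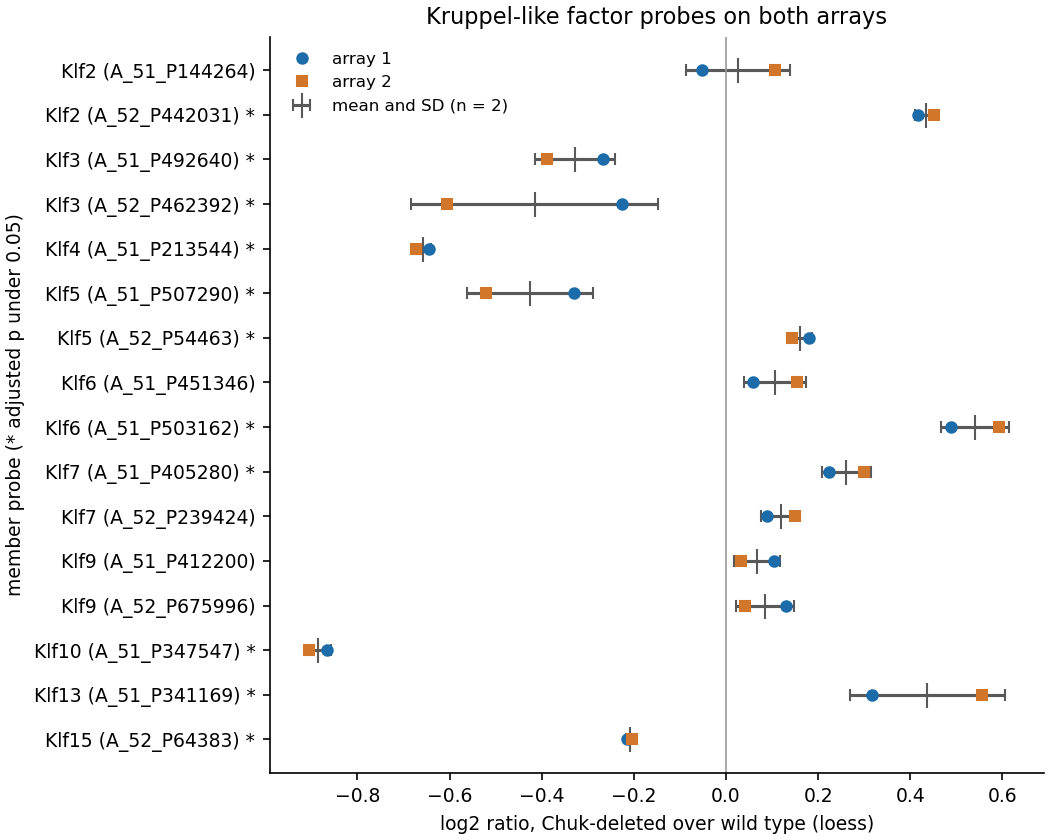
Log2 ratio of Chuk-deleted over wild type (x axis, loess) for each of the 16 tested member probes (y axis), with array 1 as circles, array 2 as squares and bars for the mean and SD (n = 2). Klf10 and Klf4 lie farthest to the left at -0.89 and -0.66. With median centring alone all probes but that of Klf10 lie above 0, and with the spike-in setting all probes lie below 0.

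Klf4, the differentiation and barrier factor, fell. Its normalised intensity was 20791 and 24773 on arrays 1 and 2 in the channel labelled Chuk-deleted, against 32512 and 39470 in the wild-type channel. Both arrays thus gave a lower signal in the channel labelled Chuk-deleted, and the channels did not overlap. The log2 ratios of -0.65 and -0.67 (mean -0.66 ± 0.02, 1.58-fold lower, adjusted p = 0.000147, limma) differed by 0.027 between arrays, less than the 0.079 of the median gene. Of tested genes, 6.63% had a lower mean ratio and 93.4% a higher one, shares that swap if the channel labels are turned. With median centring alone Klf4 lay at 0.15, which is -0.40 relative to the median of all genes under that setting, and it was not called there (adjusted p = 0.207, limma).

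Klf5, the factor of dividing basal cells, was measured by 2 probes that were called in opposite directions. Probe A_51_P507290 had normalised intensities of 2739 and 2260 in the channel labelled Chuk-deleted and 3442 and 3244 in the wild-type channel, and fell by 0.43 ± 0.14 (adjusted p = 0.00179, limma). Probe A_52_P54463 had 226 on each array in the channel labelled Chuk-deleted and 199.2 and 204.3 in the wild-type channel, and rose by 0.16 ± 0.03 (adjusted p = 0.0346, limma). The second call was lost with the scanner software's ratio (adjusted p = 0.0909), with a normexp offset of 0 (0.0748), with no filter on dim probes (0.0554) and with median centring shifted to the loess median (0.917, at a log2 ratio of 0.01). The first probe stayed past the threshold under each of these, with values from -0.52 to -0.23 over all alternatives but the pair that shift all genes.

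Klf2, known for quiescence of T cells and for flow responses of endothelium, also had probes that differed. Probe A_52_P442031 gave 93799 and 101646 in the channel labelled Chuk-deleted, against 70246 and 74282 in the wild-type channel. It rose by 0.43 ± 0.02 on the log2 scale, or 1.35-fold (adjusted p = 0.000691, limma), with the channels apart on both arrays. Probe A_51_P144264, annotated to the same transcript, gave log2 ratios of -0.05 and 0.11 and did not pass (adjusted p = 0.724). Its arrays disagreed in sign, the only case among the 16 tested probes. Relative to the median of all genes under median centring, the 2 probes lay at 0.78 and 0.12 in that order. With the spike-in setting the first lay at -0.33, above the all-gene median of -0.74, a place relative to it that loess fixes by construction. Of 12 endothelial markers 4 were tested and all 4 rose, beside 33.0% of all tested genes. They were Egfl7 (1.04 ± 0.21), Sox18 (0.44 ± 0.01), Eng (0.25 ± 0.02) and Kdr (0.21 ± 0.02). With the spike-in setting 3 of the 4 fell and 1 rose. With no filter on dim probes 4 of the list rose and 1 fell, and its median went from 0.35 to 0.04. Cldn5, Emcn, Erg and Tek were not well above background in either channel on either array. The summed normalised intensity of the 4 tested markers was 4994 and 6811 in the channel labelled Chuk-deleted and 3268 and 3857 in the wild-type channel. Egfl7 alone gave 3137 and 4629 of this in the channel labelled Chuk-deleted and 1688 and 2034 in the wild-type channel. The part of endothelial cells in the Klf2 ratio was not tested. In bulk RNA, more cells of a type and more RNA per cell cannot be told apart.

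Klf6, a broadly expressed factor induced early after injury and growth stimuli, had probes that disagreed in call. Probe A_51_P451346, which stands for the gene, gave 21907 and 23474 in the channel labelled Chuk-deleted and 21035 and 21100 in the wild-type channel, a log2 ratio of 0.11 ± 0.07 (adjusted p = 0.137, limma). The other, A_51_P503162, gave 8195 and 11977 in the channel labelled Chuk-deleted, against 5844 and 7947 in the wild-type channel, and rose by 0.54 ± 0.07 (1.45-fold, adjusted p = 0.000387, limma). Both probes were above 0 on both arrays, so they differed in size rather than in sign.

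Klf7, known mainly from the development of neurons, followed the same course. Probe A_51_P405280 rose by 0.26 ± 0.05 (adjusted p = 0.00626, limma), with 3718 and 4613 in the channel labelled Chuk-deleted against 3185 and 3751 in the wild-type channel. Probe A_52_P239424, which stands for the gene, gave 0.09 and 0.15 and did not pass (adjusted p = 0.0942). With median centring both Klf7 probes lay above the median of all genes, by 0.38 and 0.25.

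Klf3 represses transcription with CtBP and fell by both of its probes. The brighter, A_51_P492640, gave 1023 and 767 in the channel labelled Chuk-deleted and 1231 and 1005 in the wild-type channel, with a log2 ratio of -0.33 ± 0.09 (adjusted p = 0.00314, limma). On each array the signal was lower in the channel labelled Chuk-deleted, with an overlap across arrays. The other, A_52_P462392, fell by 0.42 ± 0.27 (adjusted p = 0.00865, limma), where array 1 gave -0.23 and array 2 gave -0.60. This second call was lost with the software's ratio, at -0.51 and an adjusted p of 0.0521. With median centring both probes lay above 0, the brighter called higher at 0.24 (adjusted p = 0.0358, limma) and the other not called at 0.10, while both lay below the median of all genes, at -0.31 and -0.45 relative to it.

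Klf10, first described as a TGF-β inducible early gene and a recruiter of Sin3A, fell most. Its single probe gave 4107 and 4930 in the channel labelled Chuk-deleted, against 7483 and 9235 in the wild-type channel. Wild-type signal was higher on both arrays, with no overlap. The log2 ratios of -0.87 and -0.91 (mean -0.89 ± 0.03, 1.85-fold lower, adjusted p = 6.36e-05, limma) put 4.56% of tested genes below it and 95.4% above it, which would likewise swap with the labels. Klf10 was the one member below 0 under every centring run, at -0.19 with median centring, where it was not called (adjusted p = 0.0965) but lay at -0.74 relative to the median of all genes, and at -1.65 with the spike-in setting.

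Klf13, an activator of the chemokine gene Ccl5 in T cells, also binds Sin3A and went the other way. Probe A_51_P341169 gave 3145 and 5774 in the channel labelled Chuk-deleted, against 2523 and 3926 in the wild-type channel. It rose by 0.44 ± 0.17 (1.35-fold, adjusted p = 0.00233, limma), more on array 2 (0.56) than on array 1 (0.32), and the channels were apart within each array but overlapped across arrays. Among the 10 probes that stand for the members it had the widest gap between arrays. With the spike-in setting it lay at -0.33, above the all-gene median of -0.74, a place relative to it that loess fixes by construction. The second probe, A_52_P281659, was not well above background in the wild-type channel and was so on 1 array in the channel labelled Chuk-deleted. It was left out of the test, and its log2 ratios of 0.12 and 0.12 come from signals near background.

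Klf9, induced by glucocorticoid and thyroid hormone and linked in human keratinocytes to the daily rhythm of proliferation, did not pass by either probe. Probe A_51_P412200 gave 1266 and 821 in the channel labelled Chuk-deleted and 1179 and 802 in the wild-type channel, a log2 ratio of 0.07 ± 0.05 (adjusted p = 0.304, limma). Probe A_52_P675996 gave 0.08 ± 0.06 (adjusted p = 0.217, limma). The probes of Klf9 were closer to each other than those of any other member with 2 tested probes.

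Klf15, a regulator of glucose and amino acid metabolism in liver and muscle, fell slightly. Probe A_52_P64383 gave 401 and 260 in the channel labelled Chuk-deleted and 466 and 299.3 in the wild-type channel, with a log2 ratio of -0.21 ± 0.01 (1.16-fold lower, adjusted p = 0.0128, limma). The arrays differed more in brightness than the genotypes did, while the ratio was nearly the same on both. Probe A_51_P299339 was well above background on 1 array per channel and was not tested; its log2 ratios were -0.13 and -0.15. Klf15 lay at 0.21 with median centring, which is -0.34 relative to the median of all genes.

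**Figure D2:**
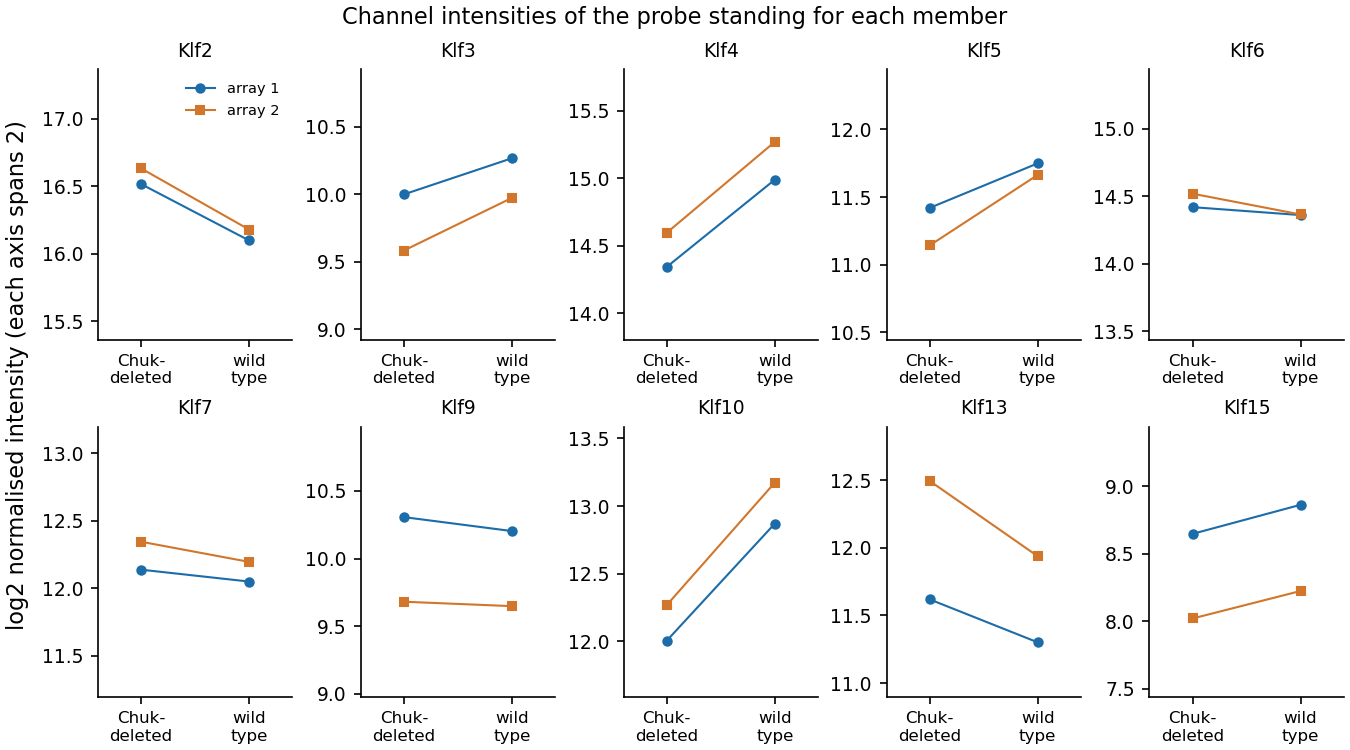
Log2 normalised intensity (y axis, each panel spanning 2 log2 units) in the channel labelled Chuk-deleted and in the wild-type channel, for the probe standing for each of the 10 members, with a line per array. The lines of Klf4 and Klf10 climb towards wild type on both arrays and those of Klf2 and Klf13 descend; the slopes are those after loess, and all would climb with the spike-in setting.

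Agreement between probes was a limit of the family. Of 6 members with 2 tested probes, 4 had different calls (Klf2, Klf5, Klf6 and Klf7) and 1, Klf5, had opposite ones. Among 3873 tested genes with 2 tested probes, 44.8% had different calls and 5.16% opposite ones. The files give no position of a probe within its transcript, so which part of each messenger RNA the probes read was not analysed here. When the tested probes of a gene were averaged, 4 members rose and 4 fell.

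**Figure D3:**
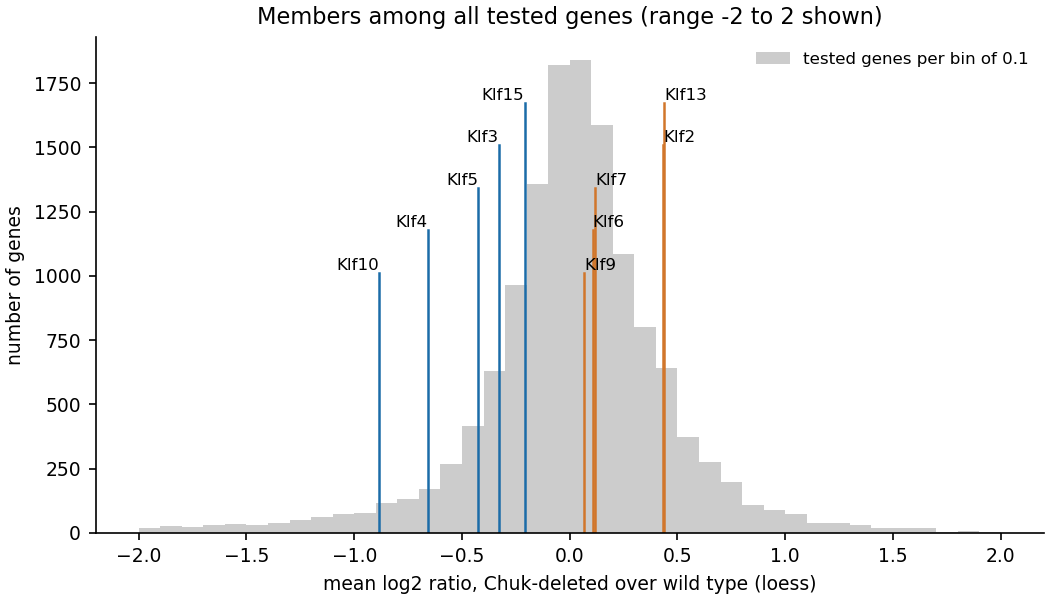
Number of tested genes (y axis) in bins of 0.1 of the mean log2 ratio of Chuk-deleted over wild type (x axis, loess, shown from -2 to 2), with a vertical line for each of the 10 members. The 5 lines left of 0 by more than 0.2 are Klf10, Klf4, Klf5, Klf3 and Klf15; 4 of them stand above 0 with median centring alone.

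**Figure D4:**
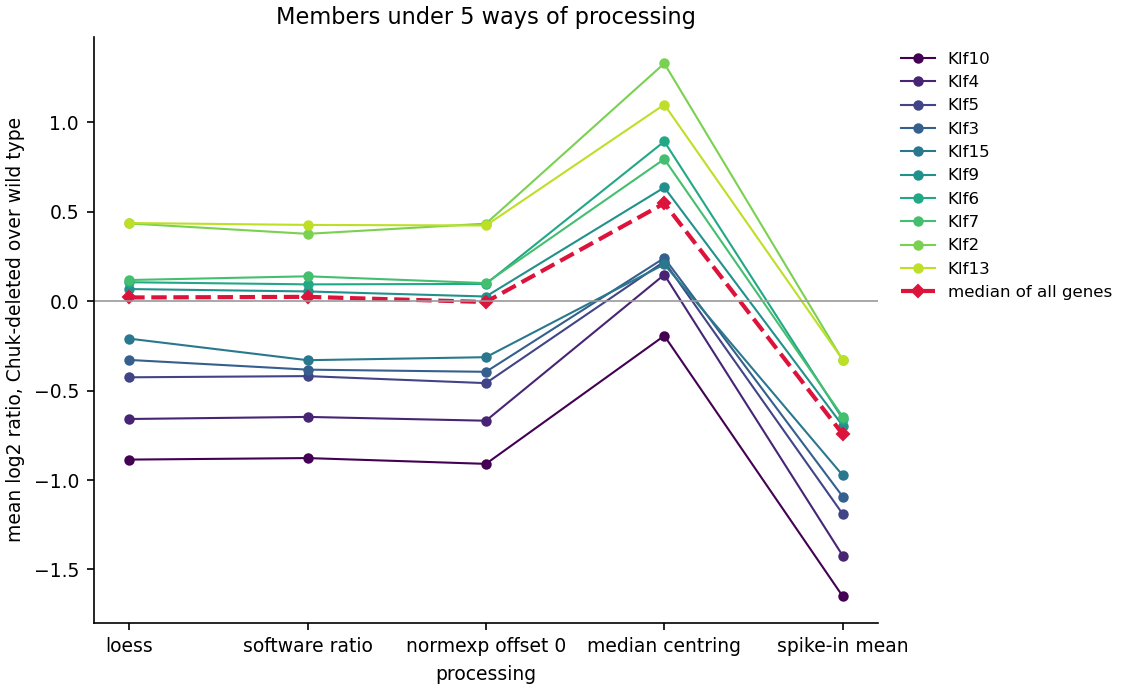
Mean log2 ratio of Chuk-deleted over wild type (y axis) of each member under 5 ways of processing (x axis), with the median of all tested genes as a dashed line. Klf10, Klf4, Klf5, Klf3 and Klf15 lie below the dashed line and Klf2 and Klf13 above it under each of the 5. For the spike-in setting this follows from loess by construction, since it takes a constant off each array. The line itself moves from 0.02 under loess to 0.55 with median centring and -0.74 with the spike-in setting.

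The rest of the KLF and SP family, which shares the zinc finger domain, was listed as 16 further genes, of which 15 were on the array and 9 were tested. Of these 4 fell and 2 rose, with a median of -0.08, where 28.3% of all tested genes fell and 33.0% rose (median 0.02). Sp1, the widely expressed factor of GC boxes, fell by 0.58 ± 0.03 (-0.56 and -0.61 on the arrays, adjusted p = 0.000229, limma). Sp6, also called epiprofin and needed for tooth and skin appendages, fell by 0.50 ± 0.10, and Sp5, a target of WNT signalling, by 0.50 ± 0.05. Klf16 fell by 0.32 ± 0.03. Klf12, a CtBP-dependent repressor, rose by 0.43 ± 0.23, with 0.59 on array 1 and 0.26 on array 2, and a second probe rose by 0.64 ± 0.07. Sp4 rose by 0.16 ± 0.06, with the wild-type channel well above background on 1 array. Klf11 (-0.08), Klf8 (0.13) and Sp3 (0.04) did not pass, although a second Sp3 probe fell by 0.35 ± 0.08 and a second Klf11 probe by 0.15 ± 0.05. By the probe that stands for each gene, Klf3 thus fell, Klf12 rose and Klf8 did not pass within the CtBP-binding set. Within the Sin3A-binding set Klf10 and Klf16 fell, Klf13 rose, and Klf9 and Klf11 did not pass. Klf1, Klf14, Klf17, Sp2, Sp7 and Sp8 had no probe past the filter. With the spike-in setting all 9 tested genes fell, and with median centring alone 4 rose and 0 fell.

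**Figure D5:**
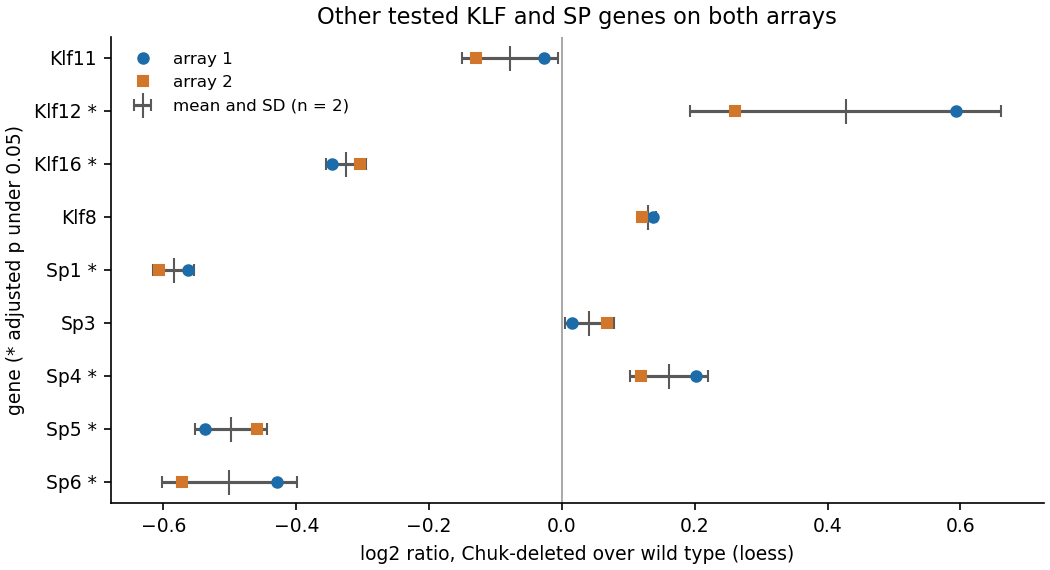
Log2 ratio of Chuk-deleted over wild type (x axis, loess) for the 9 other tested KLF and SP genes (y axis), with array 1 as circles, array 2 as squares and bars for the mean and SD (n = 2). Sp1, Sp5, Sp6 and Klf16 lie left of 0 and Klf12 right of it on both arrays; with median centring alone 0 of the 9 fell, and with the spike-in setting all 9 fell.

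Genes around the family were read from lists, beside the 28.3% of all tested genes that fell and the 33.0% that rose (median 0.02). Among 18 cofactors and ubiquitin ligases of KLF proteins 9 fell and 4 rose (median -0.06), led by the acetyltransferase gene Kat2b (-0.85 ± 0.01), the ligase genes Fbxo32 (-0.80 ± 0.06) and Wwp2 (-0.60 ± 0.05), and Smurf1 (-0.59 ± 0.07). In the MEK5-ERK5-MEF2 route, which drives Klf2 and Klf4 in endothelium, 2 of 8 rose and 2 fell (median 0.06): Map3k2 (0.44 ± 0.04) and Mef2d (0.23 ± 0.11) rose, and Map2k5 (-0.25 ± 0.08) and Mef2a (-0.18 ± 0.06) fell. Klf2 rose and Klf4 fell beside these. With median centring alone 11 cofactor genes rose and 2 fell and 5 route genes rose, and with the spike-in setting 17 cofactor genes and all 8 route genes fell. Of 14 tested genes tied to KLF4 in epithelia, 10 fell and 4 rose (median -0.39, with -0.24 on array 1 alone and -0.45 on array 2 alone). The envelope genes Tgm1 (-2.90 ± 0.84) and Lor (-2.82 ± 0.89) and the keratin gene Krt13 (-1.04 ± 0.26) fell more than Klf4 itself, and the water channel gene Aqp3 rose by 1.86 ± 0.26. This list was drawn up with the fall of Tgm1 and Lor already known. It was not split by whether KLF4 raises or lowers a gene, so its count and median do not say whether the genes followed Klf4. With median centring alone 9 of the 14 rose and 4 fell (median 0.32, below the 0.55 of all genes). With the spike-in setting 1 rose and 12 fell (median -1.15, below -0.74 as under loess by construction). Median centring shifted to the loess median gave 4 that rose and 6 that fell (median -0.13).

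Klf9, Klf10 and Klf15 belong to induced programs, whose other genes were counted beside them. Among all tested genes 33.0% rose and 28.3% fell (median 0.02). Of 13 tested glucocorticoid response genes 4 rose and 5 fell (median -0.08): Mt2 (1.24 ± 0.09), Fkbp5 (0.91 ± 0.08) and Mt1 (0.60 ± 0.14) were higher and Tsc22d3 (-0.53 ± 0.15) lower, while Klf9 did not pass and Klf15 fell. Of 16 tested clock genes 2 rose and 5 fell (median -0.08), with Rora at -0.61 ± 0.06, Cry2 at 0.46 ± 0.03, Cry1 at -0.34 ± 0.12 and Bhlhe40 at -0.31 ± 0.05. Of 14 genes of the early TGF-β response 4 rose and 4 fell (median -0.04). There Tgfbi (1.84 ± 0.24) and Ccn2 (0.98 and 1.02 on the arrays) rose, against the direction of Klf10, and Id2 fell by 1.18 ± 0.07. These counts turn with the centring: median centring alone gave 12 rising and 0 falling for the glucocorticoid list, 11 and 0 for the clock and 11 and 1 for TGF-β, and the spike-in setting gave 1 and 10, 0 and 16, and 2 and 11 in the same order.

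Markers of other cells also differed between the channels, where 33.0% of all tested genes rose and 28.3% fell (median 0.02). Fibroblast markers rose in 12 of 14 and fell in 1 (median 0.85), led by Fbln2, Sparc, Fbn1 and Thy1, and their summed normalised intensity was 353320 and 351584 in the channel labelled Chuk-deleted, against 177848 and 143653 in the wild-type channel. Melanocyte markers fell in 8 of 9 (median -0.86), led by Mlana, Pmel, Dct and Mitf, with sums of 20897 and 18486 in the channel labelled Chuk-deleted and 49147 and 50327 in the wild-type channel. Of 6 tested immune markers 3 fell (Adgre1, Lyz2 and Csf1r) and 2 rose, Aif1 among them (median -0.34), with sums of 3156 and 2875 in the channel labelled Chuk-deleted and 4326 and 4116 in the wild-type channel, and Cd207, Cd3g, Itgam and Laptm5 were not well above background in either channel. Keratinocyte markers fell in 7 of 12 and rose in 5 (median -0.31). The largest changes were falls of Epcam (-1.62 ± 0.64), Dsp (-0.91 ± 0.06) and Jup (-0.91 ± 0.39) and a rise of Itgb4 (1.57 ± 0.39). Sums of the 12 were 993327 and 994226 in the channel labelled Chuk-deleted and 826824 and 858474 in the wild-type channel. Itgb4 alone gave 204678 and 239709 of this in the channel labelled Chuk-deleted and 83754 and 66777 in the wild-type channel. With the spike-in setting 6 fibroblast markers rose and 3 fell and all 9 melanocyte markers fell, and with median centring 13 fibroblast markers rose and melanocyte markers split into 5 that fell and 2 that rose. Keratinocyte markers turned to 8 that rose and 2 that fell (median 0.39) with median centring, and 1 rose and 9 fell (median -1.07) with the spike-in setting. Of the immune markers 2 rose and 3 fell with median centring, and all 6 fell with the spike-in setting. Adgre1 and Csf1r were well above background on only 1 array in the channel labelled Chuk-deleted, and Aif1 on only 1 in the wild-type channel. Where both channels had to be well above background on both arrays, 0 immune markers rose and 1 fell. The part of these shifts in the KLF ratios was not tested.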

How the data were processed

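Agilent Feature Extraction 9.1.3.1 wrote 1 file per array, per the file headers. Of the deposited columns, spot intensity is the mean pixel brightness with a local background beside it, uncorrected per the file headers. The deposited log10 ratio is processed Cy5 over Cy3, background subtracted, detrended and dye normalised by the software, with a p-value from its error model, per the file headers. Flag columns (0 or 1) give background, saturation and outlier status. The series value table, also deposited, matched each array's log10 ratio to within 0.005 in every spot, with a median of 0 in both columns.

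In R 4.3.3 with limma 3.58.1, background was corrected by normexp (offset 50) and log2 ratios were normalised by loess within each array, control spots at weight 0. Outlier spots (51 and 18) and controls were left out and spots of a probe averaged. The 23540 probes that each array flagged above background in Cy5, Cy3 or both were tested by lmFit and eBayes against 0, two-sided, with Benjamini-Hochberg adjustment, residual degrees of freedom of 1 and 5.14 prior degrees of freedom. The fit was tested on simulated data. Channel intensities are those after loess and Aquantile scaling. Each gene was stood for by its brightest tested probe and named through RefSeq (GRCm38.p6): 16148 tested probes by accession, 4722 by symbol or synonym, 629 by the file's name, and 2041 had none. The number of arrays limits the precision.

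The members and lists were chosen with earlier results of these data known. The text names every member, Chuk, every tested gene of the KLF and SP list and, from each other list, up to 4 genes past the threshold with the largest change. One gene that this rule names is not reported here. No genes were named for a pattern like a member's, since 2 arrays of 1 comparison give none. Promoters are RefSeq's. Alternatives were median centring with no loess, the spike-in setting, the software's ratio, no background correction, an offset of 0, other filters, an intensity trend, each array alone and averaged probes. A shifted median centring was added after seeing the data.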

Additional observations from a re-analysis of the deposited data

How the results depend on the processing

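The counts of 2 members that rose and 5 that fell were the same with the software's ratio, no background correction, a normexp offset of 0, either other filter and an intensity trend. Averaging probes gave 4 rising, and median centring shifted to the loess median (chosen after seeing the data) gave 5 rising. Median centring alone gave 6 rising, 0 falling and 1 at least 2-fold higher, and all genes 10271 rising and 998 falling against 4534 and 3888. The spike-in setting gave 0 rising, 10 falling and 3 at least 2-fold lower, and all genes 272 rising and 12522 falling. The spike-in setting lowers every gene of an array alike by construction, and for median centring the cause was not tested. Klf10 lost its call with median centring (-0.19, adjusted p = 0.0965, limma). With median centring these turned: Klf3 to 0.24 (A_51_P492640) and 0.10 (A_52_P462392), Klf4 to 0.15, Klf5 (A_51_P507290) to 0.22 and Klf15 to 0.21. With the spike-in setting these turned: Klf2 to -0.74 (A_51_P144264) and -0.33 (A_52_P442031), Klf5 (A_52_P54463) to -0.60, Klf6 to -0.66 (A_51_P451346) and -0.22 (A_51_P503162), Klf7 to -0.50 (A_51_P405280) and -0.65 (A_52_P239424), Klf9 to -0.70 (A_51_P412200) and -0.68 (A_52_P675996), and Klf13 to -0.33. With 1 array left there is no test, and 0 members were 2-fold apart on either array alone. The mixing ratios of the spike-ins are not given in the sources used here. The test was already paired, since each within-array ratio sets both genotypes against each other. No further pairing was possible with a single group of 2 ratios. Signal over background limited 2 member probes, Klf13 (A_52_P281659) and Klf15 (A_51_P299339), which were not tested.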

Other observations

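The scanner software deposits its own p-value for each ratio within an array. Of 16 tested member probes, 3 had such a p under 0.05 on both arrays in 1 direction, beside 28.2% of all tested probes. They were Klf10 (9.63e-05 and 4.13e-05 on arrays 1 and 2), Klf4 (0.00326 and 0.00164) and the Klf6 probe A_51_P503162 (0.0187 and 0.00653), unadjusted. The Klf2 probe A_52_P442031 had 0.0995 and 0.0463, and the Klf13 probe A_51_P341169 had 0.129 and 0.010. These deposited values cover the error within 1 array and no spread between arrays.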
